A study of Homo sapiens with 16 samples.

Results

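In VCaP cells treated with the synthetic androgen R1881, 2229 intervals were listed as high confidence ERG peaks, and 798 of them (35.8%) are described here. These 798 ERG-only sites present with vehicle overlapped no GABPα MACS peak with R1881 but did overlap an ERG MACS peak in vehicle-treated cells, by at least 1 bp in each case, where 69.3% of all 2229 intervals overlapped such a vehicle peak. They lay in 713 of the 2046 whole MACS peaks that held a high confidence interval, so some members share a peak. Of the remaining intervals, 328 were ERG-only sites absent with vehicle and 1103 had a GABPα peak with R1881, of which 747 were also present with vehicle. Present sites therefore made up 70.9% of the 1126 ERG-only sites (95% Wilson interval 68.1 to 73.4%) and 67.7% of the sites with GABPα. Members were chosen by the ERG and GABPα peaks with R1881 and the ERG peaks with vehicle, so scores and peak calls in those 3 samples are given below as a description with no test. The exception is the position of ERG peaks with R1881, which was tested for neighbouring peaks and for chromosomes.

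ERG and GABPα are both members of the ETS family of transcription factors, which recognise DNA through a shared domain that binds a GGAA core. VCaP is a prostate cancer (PC) cell line that carries the TMPRSS2-ERG fusion, in which an androgen-responsive promoter drives ERG. ERG is otherwise best known in endothelial and blood cells, whereas GABPα is expressed widely and is known for binding gene promoters. Jurkat is a T-cell leukaemia line that expresses ERG from its own gene.

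ChIP-seq peak lists for ERG and for GABPα came from VCaP cells at t0, with vehicle (ethanol) and with 1 nM R1881, with 1 sample for each target and treatment. Vehicle and R1881 cells had first been kept in charcoal-stripped serum for 48 h, which removes steroid hormones, and neither the serum of the t0 cells nor the length of the R1881 treatment is given in the sources used here. Jurkat cells had 2 replicates for each target, and the study's methods call its ChIP replicates biological. The vehicle and R1881 peaks of a target were called against 1 shared input, and the 6 input samples came without peak lists here. The sample labels and the study's methods name different catalogue antibodies for ERG, and the methods give the labels' product as an antibody to the androgen receptor. Which antibody was used cannot be told from these sources, so "ERG peak" is used here as the labels use it. The samples held between 6963 and 23947 MACS peaks, with 23947 for ERG with R1881, 19504 with vehicle and 6963 at t0. The peak lists hold no read numbers, which leaves the depth unknown, and a site without a listed peak may lie below the calling threshold and is not shown to be unbound.

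With R1881, members had MACS scores (10 times the −log10 of the p-value, with a lower limit of 50) from 50.57 to 3100, with a median of 360 and quartiles of 228 and 536. The vehicle peaks over the same members had scores from 50.26 to 3100, with a median of 179 and quartiles of 109 and 325. Members therefore ranged from barely called to the highest score listed in both treatments. The R1881 score was the higher one at 635 members and the vehicle score at 162, and the median ratio of R1881 to vehicle score was 1.79. Scores rise with depth as well as with enrichment, so each was also ranked within its own sample. All MACS peaks with R1881 had a median score of 77.5, and those with vehicle 68.8. The median member stood at percentile 93.9 of all MACS peaks with R1881 and at percentile 90.3 with vehicle. In the top 10% of the sample were 549 members with R1881 (68.8%) and 407 with vehicle (51.0%), and 324 were there in both. Over the 798 members, the 2 scores had a Spearman rho of 0.40, and the points share the input and, where several intervals come from 1 peak, the score itself.

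**Figure D1:**
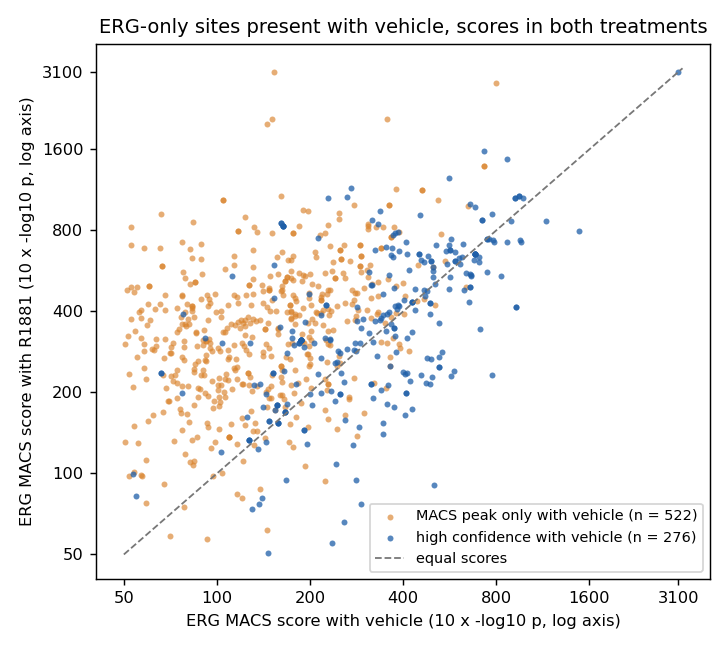
ERG MACS score of each of the 798 members with vehicle (x axis) and with R1881 (y axis), both on log axes, with blue points for members in a high confidence interval with vehicle and orange points for those with a MACS peak only. Most points lie above the dashed line of equal scores (635 of 798), and the blue points lie closer to it and farther right than the orange ones.

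The peak at the top of both lists lay on chromosome 19 (hg18), where the interval chr19:56076403-56076515 had a score of 3100 with R1881 and 3100 with vehicle. It was also the member nearest to a GABPα peak with R1881, at a gap of 74 bp, and it was in no peak of the 7 samples that the rule did not use. The next highest R1881 score was 2825 at chr10:95525340-95526051, where the vehicle score was 799. The other leading members with R1881 were chr1:203871552-203871698, with 2080 against 355 with vehicle, chr9:110591872-110592209, with 1995 against 145, and chr1:8241728-8242113, with 1577 against 732. Of these 5, the 2 on chromosome 1 also had an ERG peak at t0, with scores of 78.6 and 56.4. The highest vehicle scores after that on chromosome 19 were at chr7:46891289-46891533, with 1481 against 797 with R1881, and chr21:35251346-35251655, with 1159 against 864. They were followed by chr11:13249184-13249490, with 978 against 1058, and chr18:45461813-45462110, with 960 against 725. The last 3 of these had an ERG peak at t0, with scores of 71.8, 100.2 and 91.7 in that order. None of the 5 leading members of either list had a Jurkat ERG peak.

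Both treatments placed most members near the top of their samples, which limits how far a rank can rise. The rank with R1881 minus the rank with vehicle had a median of 1.68 percentile points (quartiles −2.39 and 12.2), 476 members ranked higher with R1881 and 322 lower. At 499 members the ranks differed by at most 10 points, 233 members were higher with R1881 by over 10 points, and 66 were lower by over 10. A rise of over 10 points was possible only at the 391 members with a vehicle rank of at most 90, and 59.6% of these had one. The sites with GABPα that were present with vehicle had a median difference of 3.84 points, and 566 of those 747 ranked higher with R1881. The ends of the distribution were uneven, with 41 members up by over 50 points and 4 down by over 50. Among members with a vehicle score of at least 100, the median difference was −0.07 points, and with ranks taken only among peaks of at least 100 in both samples it was 5.54, so its size and sign depended on how the weak peaks were treated.

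The 5 largest rises joined strong R1881 peaks to vehicle peaks at the calling limit. On chromosome 10, chr10:76937612-76937776 had a score of 482 with R1881 and 51.3 with vehicle, and chr10:1452259-1452535 had 323 and 51.7. The other 3 lay on chromosome 8, with R1881 scores of 302, 826 and 707 and vehicle scores of 50.4, 52.9 and 52.9. None of the 5 was a high confidence peak with vehicle, and none had a peak in any of the 7 samples outside the rule. The largest fall was at chr2:90965777-90965847, with a score of 50.57 with R1881 and 146 with vehicle, and this member had Jurkat ERG scores of 147 and 190. The next was chrX:66488231-66488322, with 55.0 and 235, in a MACS peak 15827 bp long, and a member on chromosome 8 followed with 66.1 and 258. The last 2 were chr11:65031750-65031824, with 61.6 and 146, and chr3:196304746-196304907, with 57.3 and 93.1. At the edge of the rule, the members with the weakest vehicle peaks had vehicle scores of 50.26, at chr14:74791066-74791166, and 50.4, at the chromosome 8 site that rose most. Just outside it, the absent sites chr3:32062340-32062503 and chr9:24371763-24371969 lay 73 and 79 bp from vehicle peaks with scores of 213 and 79.2.

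The vehicle peak was usually in the same place as the R1881 interval. The centres of the interval and of the vehicle peak lay a median of 56.8 bp apart, and 743 of the 798 pairs lay within 200 bp. The whole R1881 peaks were longer than the vehicle peaks, with a median ratio of 1.36. The median gap to the nearest GABPα MACS peak with R1881 was 50144 bp for members and 42549 bp for the absent sites. The rule left out sites that overlap such a peak, so a gap is set by the choice. No other baseline was taken, and the values do not show that members avoid GABPα.

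Of the 798 members, 276 (34.6%, interval 31.4 to 38.0%) lay in a high confidence ERG interval with vehicle, where 22.8% of all 2229 intervals did. The other 522 had a MACS peak alone. By the study's methods a high confidence peak is one found by both MACS and a second peak caller, SWEMBL, and with vehicle the list held 743 intervals. These 743 are whole MACS peaks, so a member can lie in one without touching the SWEMBL peak. An interval with no vehicle MACS peak cannot lie in one, so the rule itself sets members above all 2229 intervals. A vehicle SWEMBL peak itself was overlapped by 248 members (31.1%), where 21% of all intervals and 1.52% of absent sites overlapped one. The sites with GABPα that were present with vehicle, chosen for a vehicle peak as the members were, had a high confidence share of 31.2% (233 of 747), close to that of members. Among members, the share followed the vehicle score. It was 4.12% of the 170 members with vehicle scores under 100, 23.6% of the 276 between 100 and 200, 40.9% of the 220 between 200 and 400, and 86.4% of the 132 at 400 or more. By R1881 score it showed no such order, at 38.5% under 200, 29.6% between 200 and 400 and 37.5% at 400 or more. The R1881 median was 367 for members at high confidence with vehicle and 358 for the others, while the vehicle medians were 354 and 141. Members at high confidence with vehicle had a median rank difference of −1.98 points, and the others 7.59. Both calls come from the vehicle sample that also sets the rank difference, so they are not separate evidence.

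**Figure D2:**
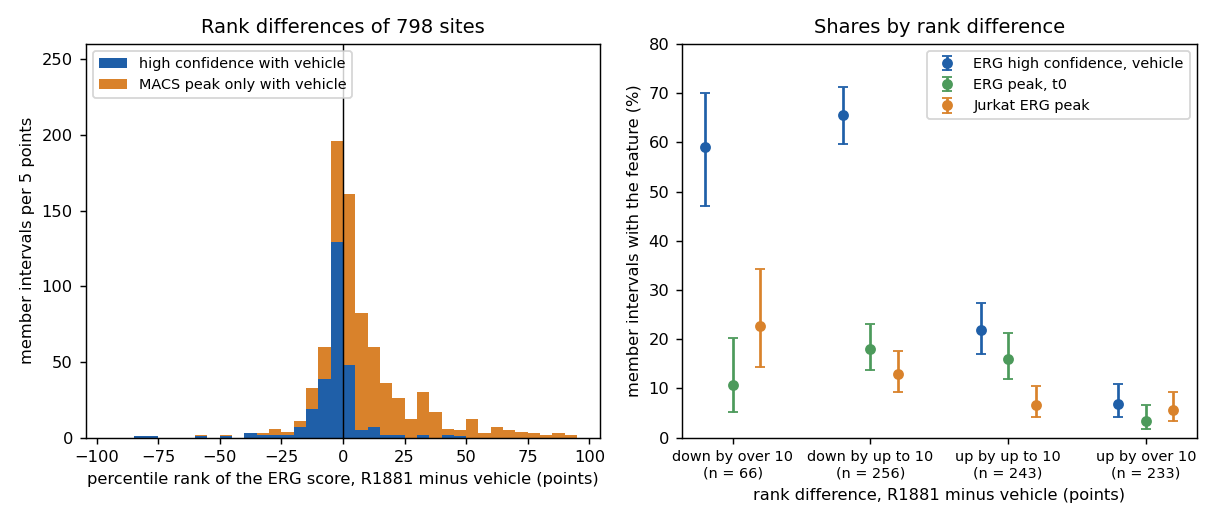
Left, number of member intervals (y axis) by the percentile rank of the ERG score with R1881 minus that with vehicle (x axis, in points), with members at high confidence with vehicle in blue and the others in orange. Right, share of members (y axis, in percent, with 95% Wilson intervals) at high confidence for ERG with vehicle, with an ERG peak at t0 and with a Jurkat ERG peak, by class of rank difference (x axis). The blue share falls from 59.1% and 65.6% in the classes that were lower with R1881 to 6.87% in the class that was higher by over 10 points.

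The samples that the rule did not use allowed the members to be compared with the 328 absent sites, using Fisher's exact test over sites (two-sided, adjusted by the Benjamini-Hochberg method over 5 tests). The 5 include the test on neighbouring peaks, given further below, which used positions in the R1881 ERG sample of the rule instead. Fisher's test over sites treats sites as the units and says nothing of the spread between cultures. ERG at t0, the only further VCaP ERG sample, had a MACS peak at 100 of 798 members (12.5%, interval 10.4 to 15.01%) and at 6 of 328 absent sites (1.83%, interval 0.84 to 3.93%), with 10.8% over all 2229 intervals. Fisher's exact test gave an odds ratio of 7.69 (adjusted p = 1.1e-09). The member share was near that of all intervals and below the 17.0% of sites with GABPα present with vehicle, so the difference lies mainly in the low share of absent sites. The t0 scores at these 100 members ran from 50.05 to 239, with a median of 74.0 against 57.5 over all t0 peaks. None of the members was a high confidence ERG interval at t0, where the whole list held 2 and 0.0449% of all intervals overlapped one. Absent sites had lower R1881 scores (median 264), so the shares were also set side by side at like scores. They were 18.0% and 2.13% at scores of 400 or more, 9.65% and 0.81% between 200 and 400, and 6.08% and 2.70% under 200, where the difference missed the threshold (exact test, adjusted p = 0.253). Within the members, 62 of the 276 at high confidence with vehicle had a t0 peak (22.5%, interval 17.9 to 27.7%), against 38 of the other 522 (7.28%, interval 5.35 to 9.83%). By rank difference, the t0 share was 3.43% among members higher with R1881 by over 10 points and 10.6 to 18.0% in the other classes. The t0 share also followed the vehicle score. It was 2.35% of members with vehicle scores under 100, 8.33% between 100 and 200, 15.5% between 200 and 400 and 29.5% at 400 or more. Both splits depend on that score, so they are not separate from it.

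A MACS peak for ERG in either Jurkat replicate was found at 77 members (9.65%, interval 7.79 to 11.9%) and at 8 absent sites (2.44%, interval 1.24 to 4.74%), with 5.79% over all intervals. The exact test gave an odds ratio of 4.27 (adjusted p = 1.58e-05). The 77 members lay in 51 whole peaks, so they are not independent units. With the rule and the overlaps taken anew over whole MACS peaks as units, 714 peaks were members, not quite the same set as the 713 above. The shares were then 7.84% and 2.27% (exact test, adjusted p = 0.000429). Replicate 1 had a peak at 65 members and replicate 2 at 75, where 3.81% and 5.61% of all intervals had one, and 63 members had a peak in both. High confidence Jurkat ERG intervals covered 51 members in each replicate and 56 in either, where the shares over all intervals were 2.78% in each and 3.1% in either. Both an ERG peak at t0 and a Jurkat ERG peak were found at 6 members, or 0.75%, against 0.583% of all intervals. GABPα was often listed at the same Jurkat sites, and 65 of the 77 members had a Jurkat GABPα peak as well. Jurkat GABPα peaks were found at 74 members in all (9.27%, interval 7.45 to 11.5%) and at 10 absent sites (3.05%, interval 1.66 to 5.52%), with 9.15% over all intervals (exact test, odds ratio 3.25, adjusted p = 0.000191). Replicates 1 and 2 had 51 and 71 of them, where 7.31% and 8.21% of all intervals had a peak. With whole MACS peaks as units the Jurkat GABPα shares of members and absent sites were 7.14% and 2.92% (exact test, adjusted p = 0.0106). The share of members with a Jurkat GABPα peak was close to that of all ERG intervals, and 51 of these 74 members lay within 1 Mb of a long stretch without peaks.

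**Figure D3:**
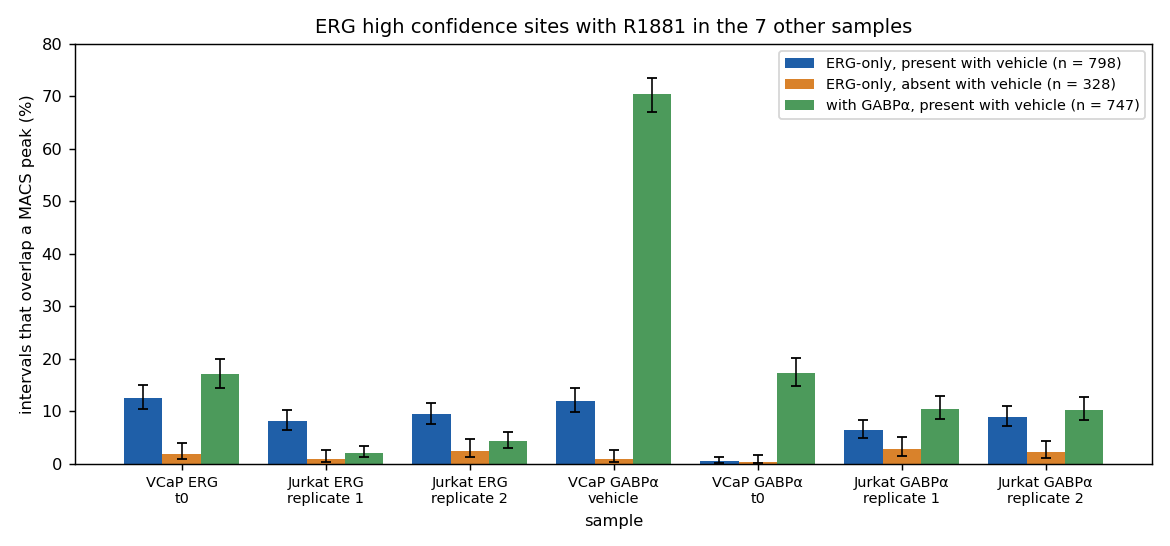
Share of intervals that overlap a MACS peak (y axis, in percent) in each of the 7 samples that the rule did not use (x axis), for the 798 members, the 328 ERG-only sites absent with vehicle and the 747 sites with GABPα that were present with vehicle, with 95% Wilson intervals over sites. Members stand above the absent sites in each sample, by least for GABPα at t0, where 4 members and 1 absent site had a peak. For GABPα with vehicle they stand far below the sites with GABPα, from which the rule parted them by a GABPα peak with R1881.

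In VCaP cells, GABPα peaks with vehicle or at t0 were found at 98 members (12.3%, interval 10.2 to 14.7%) and at 4 absent sites (1.22%, interval 0.48 to 3.09%), with 33% over all intervals (exact test, odds ratio 11.3, adjusted p = 1.4e-10). These members had a GABPα MACS peak in another treatment although none was listed with R1881. The shares over all intervals include the sites with a GABPα peak with R1881, so the rule itself sets members below them. Nearly all came from the vehicle sample, with 95 members, against 4 at t0, where the shares over all intervals were 32.6% and 6.91%. The GABPα scores with vehicle at the 95 were low, from 50.1 to 325 with a median of 71.8, where all GABPα peaks of that sample had a median of 140. Of all 798 members, 1 was a high confidence GABPα interval in either sample, as was 1 absent site and 6.82% of all intervals, so nearly all of these peaks were listed by MACS alone. At t0 alone the shares were 0.50% and 0.30%. At high confidence they were 0.13% and 0.30%, and neither of these differences passed the test.

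The Jurkat overlap was unevenly placed in the genome. For each chromosome, the longest stretch with no MACS peak in any of the 10 samples was found, which ran from 0.453 to 30.0 Mb in length. In a genome build centromeres are left as long gaps to which no read can align, but no hg18 sequence was used here and whether these stretches are such gaps was not tested. Within 1 Mb of such a stretch lay 59 members (7.39%), 7 absent sites (2.13%) and 7 sites with GABPα present with vehicle (0.94%), with 3.32% over all intervals. A Jurkat ERG peak was found at 54 of these 59 members (91.5%, interval 81.7 to 96.3%), and at 23 of the other 739 (3.11%, interval 2.08 to 4.63%). Jurkat GABPα peaks were at 51 of the 59 and at 23 of the 739. ERG at t0 had a peak at 0 of the 59, and all 100 members with a t0 peak were among the 739. GABPα with vehicle did not follow the split, with 7 of 59 (11.9%) and 88 of 739 (11.9%). The 59 had lower R1881 scores than the others, with medians of 180 and 370, and 41 of them (69.5%) were at high confidence with vehicle, against 31.8% of the others. A vehicle SWEMBL peak itself was overlapped by 31 of the 59 (52.5%) and by 29.4% of the others.

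**Figure D4:**
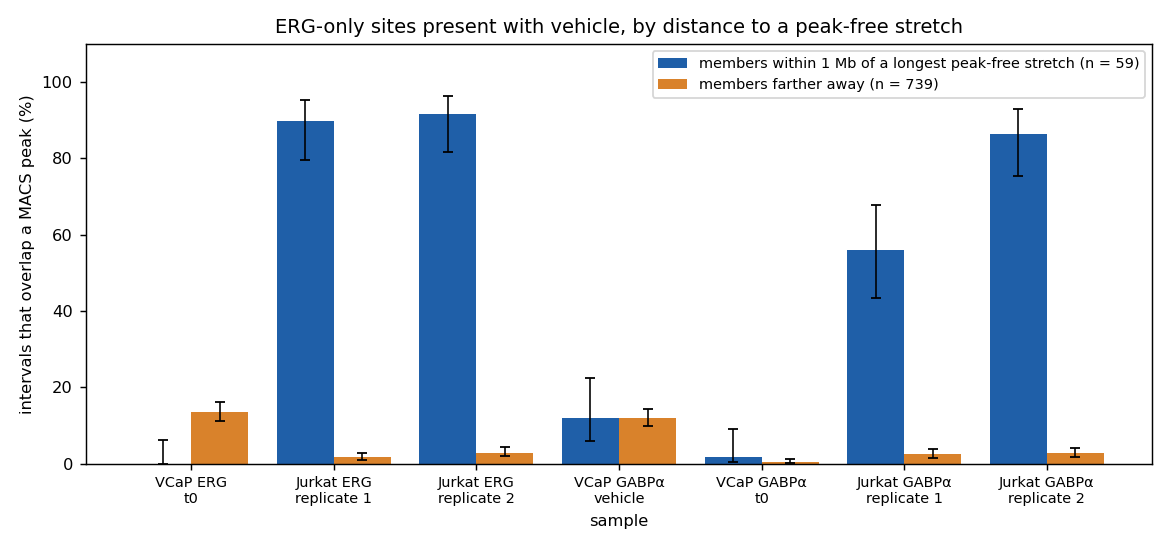
Share of members that overlap a MACS peak (y axis, in percent) in each of the 7 samples that the rule did not use (x axis), for the 59 members within 1 Mb of the longest peak-free stretch of their chromosome and the 739 farther away, with 95% Wilson intervals over sites. The near members stand at 89.8% and 91.5% in the Jurkat ERG replicates and at 0% for ERG at t0, where the members farther away stand at 1.62%, 2.84% and 13.5%.

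The near members with a Jurkat ERG peak lay on 4 chromosomes, with 27 intervals on chromosome 16, 15 on chromosome 2, 6 on chromosome 4 and 6 on chromosome 10, which were all the near members there. The 5 without one lay on chromosomes 17 and 18, where the stretches were 0.6 and 1.36 Mb long. On the 4 chromosomes above they ran from 2.48 to 9.81 Mb. Most near members with a Jurkat ERG peak belonged to tight groups of whole member peaks joined by gaps of at most 10 kb. The largest group, chr2:90960482-90977797, held 8 peaks and 15 intervals, with R1881 scores from 50.57 to 423 and vehicle scores from 54.8 to 226. All 15 intervals had a peak in both Jurkat ERG replicates, and 14 were at high confidence with vehicle. On chromosome 16, chr16:44943247-44959431 held 6 peaks and 18 intervals, with R1881 scores from 123 to 654 and vehicle scores from 104 to 684, and it began 28 bp from the stretch. Another group, chr16:44974288-44989157, held 5 peaks and 9 intervals, with scores from 97.9 to 305 and from 57.2 to 280. Every interval of these 2 groups had a peak in both Jurkat ERG replicates and in Jurkat GABPα replicate 2, and 6 and 1 of them had a VCaP GABPα peak with vehicle. A group of 4 peaks at chr4:48795556-48818043 held 5 intervals, all 5 with peaks in both Jurkat ERG replicates. These 4 groups held 47 of the 77 members with a Jurkat ERG peak. Beyond them there were 15 groups of 2 member peaks each, and 660 of the 713 member peaks had no other member peak within 10 kb.

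The 5 members with the highest Jurkat ERG scores were also near such stretches, and all but the member on chromosome 10 lay in the groups above. The highest was at chr4:48817680-48817740, with 390 and 1477 in the Jurkat replicates and VCaP scores of 156 with R1881 and 147 with vehicle. It was followed by chr10:41676341-41676451, with 249 and 1209 in Jurkat cells, and chr16:44946580-44946637, with 559 and 1101. The last 2 were chr2:90968470-90968588, with 699 and 1005, and chr4:48797080-48797191, with 128 and 806. All 5 lay within 1 Mb of a peak-free stretch, and replicate 2 had the higher score at each. At the members with a peak, the Jurkat ERG scores had medians of 209 in replicate 1 and 332 in replicate 2, against 64.5 and 69.8 over all peaks of these samples.

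**Figure D5:**
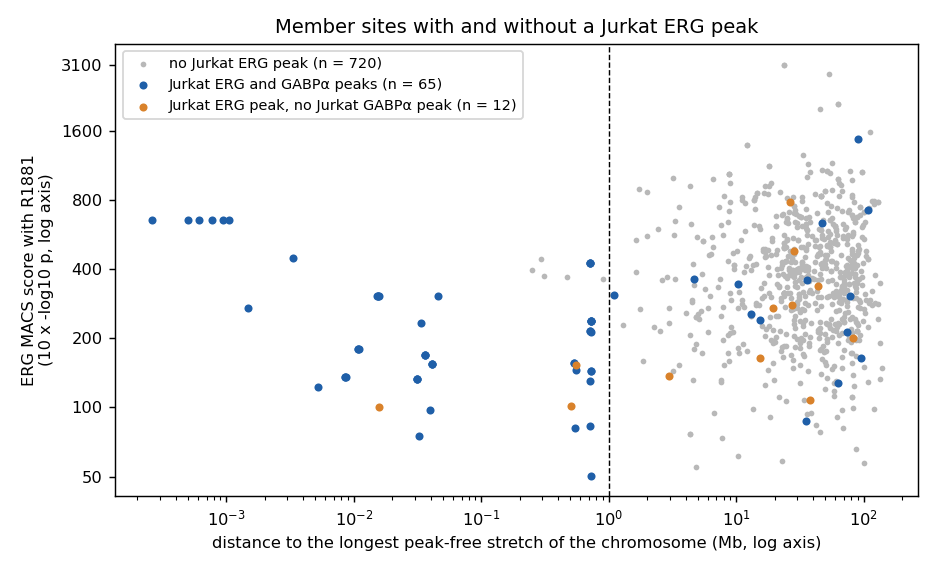
ERG MACS score with R1881 of each member (y axis, log axis) by its distance to the longest peak-free stretch of its chromosome (x axis, in Mb, log axis), with members that have a Jurkat ERG peak in blue where a Jurkat GABPα peak is also present and in orange where it is not. The dashed line marks 1 Mb, left of which 54 of 59 members have a Jurkat ERG peak, and intervals of 1 MACS peak share a score. The 1 member on unplaced sequence has no distance and is not drawn.

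Without the sites within 1 Mb of a stretch, an alternative chosen after the Jurkat overlap had been seen, the Jurkat ERG shares were 3.11% for members and 0.62% for absent sites (exact test, adjusted p = 0.0172), a difference of 2.49 percentage points in place of 7.21. The Jurkat GABPα shares were then 3.11% and 1.56%, and the difference no longer passed the exact test (adjusted p = 0.253). The t0 shares moved the other way, to 13.5% and 1.87%. Across classes of rank difference, the Jurkat ERG share of all members was 22.7% among those lower with R1881 by over 10 points, 12.9% and 6.58% in the middle classes and 5.58% among those higher by over 10. Farther from the stretches it was 10.5%, 2.19%, 2.59% and 2.70% in the same order, with 6, 5, 6 and 6 members behind the shares.

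The 23 members with a Jurkat ERG peak farther away lay in 23 separate whole peaks, had a median R1881 score of 280 and a median vehicle score of 221, and 14 also had a Jurkat GABPα peak. The 5 with the highest Jurkat ERG scores, chosen after these values had been seen, began with chr16:34047644-34047748, with 619 in Jurkat replicate 2, none in replicate 1, and VCaP scores of 308 with R1881 and 320 with vehicle. It lay 1090008 bp from the stretch, just beyond the limit. It was followed by chr1:58374848-58375040, with Jurkat scores of 164 and 358 and VCaP scores of 128 and 276, and by a site on chromosome 8 with 246 and 297 in Jurkat cells. At chr9:111991210-111991485 and chr3:184965984-184966184, all 3 VCaP ERG samples had a peak. The former had scores of 636 with R1881, 157 with vehicle, 57.9 at t0 and 234 in Jurkat replicate 2, and the latter 1471, 870, 158 and, in the Jurkat replicates, 60.5 and 198.

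Against the 747 sites with GABPα that were present with vehicle, a comparison also added after the values had been seen (3 Fisher's exact tests, adjusted over the 3), the t0 share of members was 12.5% against 17.0% (adjusted p = 0.0217), the Jurkat ERG share 9.65% against 4.55% (adjusted p = 0.000321) and the Jurkat GABPα share 9.27% against 11.9% (adjusted p = 0.0977). With whole MACS peaks as units the Jurkat ERG shares were 7.84% and 4.59% (exact test, adjusted p = 0.0225). The sites with GABPα had higher R1881 scores than the members (medians of 523 and 360). Within bands of like score, neither the t0 nor the Jurkat ERG difference passed. The bands hold fewer sites (148 members and 42 sites with GABPα under 200), so a missed threshold there does not show equal shares. At scores of 400 or more, the t0 shares were 18.0% and 19.4% and the Jurkat ERG shares 4.42% and 4.36%. Between 200 and 400 they were 9.65% and 14.0% for t0 and 8.04% and 3.50% for Jurkat ERG, and under 200 they were 6.08% and 2.38% and 25% and 11.9%, and none of these differences passed the exact test. Jurkat GABPα peaks were less frequent at members with scores of 400 or more, at 5.01% against 11.9% (exact test, adjusted p = 0.000877). The rule parted members from these sites by a GABPα peak in VCaP cells. A difference in Jurkat GABPα peaks is therefore close to what was selected and is not separate evidence about the members. Without the sites near the stretches, the t0 shares were 13.5% and 17.2% (exact test, adjusted p = 0.0908), the Jurkat ERG shares 3.11% and 3.92% (adjusted p = 0.481), and the Jurkat GABPα shares 3.11% and 11.4% (adjusted p = 1.87e-09).

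Clustering of members did not pass the test against absent sites at 10 kb. The positions come from the R1881 ERG list that the rule also used, so the tests here are not evidence from a separate sample. An absent whole peak holds an absent interval and no member interval. Of these 316, 7 (2.22%) overlapped an ERG vehicle MACS peak elsewhere along their length. Another whole ERG peak with a high confidence interval lay within 10 kb of 80 of the 713 member peaks (11.2%, interval 9.11 to 13.7%) and of 44 of the 316 absent ones (13.9%, interval 10.5 to 18.2%), with 9.48% over all 2046 (exact test, odds ratio 0.78, adjusted p = 0.253). Within 50 kb the shares were 23.8% and 33.5%, with 22.5% over all 2046. Member peaks then had a neighbour less often than absent ones (exact test, adjusted p = 0.00136). Their share was close to that of all whole peaks, and the absent share stood above it. Leaving out the sites near the stretches, the shares within 10 kb were 8.09% and 12.9% (exact test, adjusted p = 0.0199), where all whole peaks, those sites included, had 9.48%. The median gap to the nearest other such peak was 285773 bp for member peaks and 165561 bp for absent ones. By chromosome, the member and absent whole peaks did not differ past the threshold on any of 23 chromosomes (Fisher's exact test, 0% called, lowest adjusted p = 0.327), and 2 chromosomes had an unadjusted p under 0.05. These were chromosome 4, with 27 member and 3 absent peaks, and chromosome 11, with 21 and 18.

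No MACS peak in any of the 7 samples outside the rule was listed at 554 of the 798 members (69.4%, interval 66.1 to 72.5%), against 57.4% of all intervals. The share was 93.3% for the 328 absent sites and 25.2% for the 747 sites with GABPα that were present with vehicle, where GABPα with R1881 was part of the choice. No sequence is shown for the members, since no genome of the hg18 build was used here.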

How the data were processed

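Reads were aligned to hg18 by the authors with BWA 0.5.5, poorly aligned and duplicate reads were removed, and peaks were called per sample with MACS and SWEMBL, whose versions are not given in the sources used here. The deposited MACS score is 10 times the −log10 of the p-value, and its lower limit of 50 is a p-value of 1e-05. The deposited high confidence intervals with R1881 are pieces of MACS peaks that all 2229 equal a SWEMBL peak and have the parent's score. With vehicle they are whole MACS peaks with another column of no stated meaning, which was not used.

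Overlaps of at least 1 bp, gaps, percentile ranks within a sample, Wilson intervals and Fisher's exact tests were computed in Python 3.11.15 (numpy 2.4.6, scipy 1.17.1). Overlap counts were tested on simulated data against bedtools 2.31.1. Where several vehicle peaks overlapped a member, the highest score was used. The chromosomal positions are 1-based hg18. Absence in a peak list has no depth behind it, and intervals and tests cover variation over sites only.

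The members and lists were chosen with earlier results of these data known. Named regions are the 5 members with the highest score for R1881, vehicle and Jurkat ERG, the 5 largest rises and falls of rank, the largest groups of peaks and the sites at the edge of the rule, with several intervals of 1 peak counted once. The comparison with sites with GABPα, its bands of score and the split at 1 Mb from a peak-free stretch were added after the values had been seen. Alternatives were whole peaks, an overlap of 50% of the shorter interval, a vehicle score of at least 100, bands of R1881 score, single replicates, high confidence peaks and other gaps. Each tested alternative was adjusted within its family of tests in place of its main result. An adjusted value can therefore be carried over from another test, and the 0.253 of the neighbour test recurs for this reason. Motif shares, gene names and sequences were left out because no hg18 genome or annotation was used here.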

Additional observations from a re-analysis of the deposited data

How the results depend on the processing

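The values below are members minus absent sites in percentage points unless said otherwise. The t0 difference, 10.7, fell to 3.38 among sites with R1881 scores under 200 and then missed the threshold, and the Jurkat ERG difference, 7.21, was 4.42 at scores of 400 or more and missed it (Fisher's exact test, adjusted p = 0.0616). For VCaP GABPα, 11.1 became 0.20 with t0 alone and −0.18 with high confidence peaks. The neighbour difference within 10 kb, −2.70, was 3.95 at scores under 200, and passed the threshold at −9.70 within 50 kb and at −4.81 without the sites within 1 Mb of a peak-free stretch. Without those sites Jurkat GABPα, 6.22, was 1.55 and missed the threshold. Against sites with GABPα, leaving them out turned the Jurkat ERG difference from 5.10 to −0.81, reduced the t0 difference from −4.47 to −3.63, which then missed the threshold, and took the Jurkat GABPα difference from −2.64 to −8.24. With whole MACS peaks as units the last was −4.91, and both of these passed. The rule parted members from these sites by VCaP GABPα peaks, so the Jurkat GABPα differences are not separate evidence about the members. Against the same sites at R1881 scores under 200, of 200 to 400 and of 400 or more, the t0 difference was 3.70, −4.35 and −1.41 and the Jurkat ERG difference 13.1, 4.54 and 0.068, none past the threshold, and the Jurkat GABPα difference was 4.28, −2.64 and −6.87, of which only the last passed. For vehicle scores of at least 100, the high confidence share of members was 42.8% in place of 34.6%, and the median rank difference was −0.066 points in place of 1.68; with ranks among peaks of at least 100 in both samples it was 5.54. Leaving out 1 Jurkat replicate gave 6.96 to 7.23 for ERG and 3.65 to 6.76 for GABPα. The cause of these shifts was not tested. The other 53 combinations of result and alternative, single Jurkat replicates included, kept their direction and side of the threshold, or, where no test applied, stayed close to the value reported. No paired analysis was possible because sites were compared within the same samples and VCaP conditions have 1 sample each. Motif shares and their alternative were not run. Depth is unknown, and t0 had the shortest ERG list, so a site not listed there is no evidence of absence.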
